A study of Mus musculus with 6 samples.

Results

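The proteasome and immunoproteasome genes were followed from Naive CD4+ T cells to Th17 and Th1 cells in mouse RNA-Seq counts. The members are the genes whose symbol is Psma, Psmb, Psmc, Psmd or Psme followed by a digit, and 45 of the 24223 genes counted met this rule. They comprise 31 constitutive subunits of the 26S proteasome (7 alpha and 7 beta subunits of the 20S core, 6 ATPases and 11 non-ATPase subunits of the 19S particle) and the 5 immunoproteasome genes *Psmb8*, *Psmb9*, *Psmb10*, *Psme1* and *Psme2*. The rest include 3 chaperones of 19S assembly (*Psmd5*, *Psmd9* and *Psmd10*) and the activators *Psme3* and *Psme4*. They also include the core subunits *Psma8* and *Psmb11*, known from testis and thymus respectively. Another 2 genes met the rule by symbol and were placed in none of these groups. Of these 2, *Psme2b* is a near-identical copy of *Psme2*, and *Psmc3ip* encodes a recombination factor that is no subunit. 44 members passed the filter on low counts and were tested, and *Psmb11* was not.

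6 libraries were sequenced, 2 each from Naive, Th17 and Th1 cells of C57BL/6 mice aged 1 to 2 months. Naive cells were CD4+CD44- T cells isolated with a CD4+CD62L+ kit from pooled lymph nodes and spleens and were not cultured. Both helper types received anti-CD3 and anti-CD28 stimulation and anti-IL-4. Th1 cultures also received IL-12 and IL-2, and Th17 cultures received anti-IFN-γ, TGF-β, IL-6, IL-1β and IL-23, until collection on the fifth day. Activation, culture and polarization therefore cannot be told apart in a comparison with Naive, whereas Th1 and Th17 were both activated and cultured. The Th17 cultures held an antibody that neutralises IFN-γ and the Th1 cultures did not, so this agent and the other differences of the 2 media cannot be told apart either. The study describes the replicates of a cell type as independent biological ones, whereas the labels do not say whether they came from separate animals, so p-values measure the spread between these libraries.

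The 26S proteasome degrades ubiquitin-tagged proteins. Its 20S core is a stack of alpha and beta rings, and its 19S particle unfolds the substrate with a ring of ATPases. *Psmb6*, *Psmb7* and *Psmb5* encode the catalytic beta subunits of the constitutive core. IFN-γ induces *Psmb9*, *Psmb10* and *Psmb8*, whose products replace them in newly built cores, and *Psme1* and *Psme2*, which encode the PA28 activator, and the resulting immunoproteasome produces peptides suited to MHC class I. Lymphocytes are known to carry immunoproteasomes without added interferon. The transcription factor Nrf1, encoded by *Nfe2l1*, is known to drive the constitutive genes when proteasome capacity falls short.

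Depth was 59973041 to 69080017 counts in the replicate 1 libraries and 17742158 to 18608805 in the replicate 2 libraries, so depth and replicate number cannot be told apart, and a count of 0 allows up to 0.0440 to 0.190 CPM (3 counts, counting error only). Values are TMM-scaled CPM, in which the total of each library is scaled by its TMM factor, and the members held 0.499% to 0.827% of all counts in each library. All 4 T cell marker genes measured were above 10 CPM in every library, the Th17 markers summed to 1405 and 1872 CPM in the Th17 libraries against at most 5.94 elsewhere, and the Th1 markers to 775 and 763 CPM in the Th1 libraries against at most 93.9 elsewhere. The Th17 libraries also held transcripts of other blood cells. All 7 neutrophil markers were above 10 CPM in both Th17 libraries and summed to 2875 and 2774 CPM, against 310 and 189 in Naive and 27.4 and 39.3 in Th1. They did not all rise in Th17. *Mpo* was lower there, at 68.1 and 58.7 CPM against 251 and 159 in Naive. *Elane* overlapped, at 52.5 and 46.9 against 57.3 and 29.6. *S100a8*, *S100a9*, *Ngp*, *Ltf* and *Camp* had at most 0.969 CPM in Naive. The 7 macrophage and dendritic cell markers measured summed to 241 and 815 CPM in Th17, of which *Lyz2*, encoding lysozyme, made up 223 and 762, against at most 45.6 elsewhere. No marker of these 2 lists was at 0 in all libraries. The 4 mast cell and basophil markers summed to 119 and 301 CPM in Th17 against at most 34.9 elsewhere, and the B cell, NK cell and CD8 T cell lists to at most 18.2 CPM in any library. The part of these cells in the proteasome results of Th17 was not tested.

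The locations of the immunoproteasome genes are given on GRCm38 from GENCODE vM21. *Psmb8* (chr17:34197721-34201454, plus strand) and *Psmb9* (chr17:34181987-34187764, minus strand) lay 9956 bases apart in the MHC region. The exons of *Psmb9* overlapped those of *Tap1*, on the other strand, by 212 bases, those of *Psmb8* overlapped the antisense gene *Gm20496*, which the count files do not list, by 498 bases (14.7% of its exon length), those of *Psmb7* overlapped *Nek6* on the other strand by 405 bases, and those of *Psmb5* overlapped *Mir686* on the same strand by 109, so reads there are uncertain. *Psme1* (chr14:55578123-55581529, plus strand) and *Psme2* (chr14:55587441-55591113, minus strand) lay 5911 bases apart, and *Psmb10* lay alone at chr8:105935735-105938444 on the minus strand. Each inducible catalytic subunit shared 65.4% to 69.1% of aligned coding bases with the subunit it replaces (*Psmb8* with *Psmb5* 69.1%, *Psmb9* with *Psmb6* 65.8%, *Psmb10* with *Psmb7* 65.4%). *Psme2* and the single-exon *Psme2b* were identical at 712 of 717 coding bases, and their separate counts are uncertain.

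Promoters from RefSeq (GRCm38.p6, 250 bases before to 50 after the start) matched 38 of the 45 members. They were searched on both strands for motifs of interferon-activated factors, Nrf factors, NF-κB and the CCAAT box. *Psmb7* was not among the 38 and was not searched. Of the 5 immunoproteasome genes, *Psmb5* and *Psmb6*, the 4 that held a GAS, ISRE-like or ARE-like match are shown. Capitals mark a GAS motif (TTCNNNGAA, an element of interferon-responsive promoters) in *Psmb8*, which begins 97 bases before the start, an ISRE-like motif (GAAA, any 2 bases and again GAAA, bound by interferon regulatory factors; here on the other strand) in *Psme1*, which begins 9 bases after it, and ARE-like motifs (TGACNNNGC, bound by Nrf factors) in *Psmb5* and *Psmb6*. The windows are chr17:34197945-34198244 (plus) for *Psmb8*, chr14:55578244-55578543 (plus) for *Psme1*, chr14:54617946-54618245 (minus) for *Psmb5* and chr11:70525107-70525406 (plus) for *Psmb6*. The start meant here is that of RefSeq. For *Psmb8* and *Psme1* the whole window lies inside the GENCODE gene, which begins upstream of it (at 34197721 and 55578123). By those coordinates both motifs are within the gene. The *Psmb9* window (chr17:34187281-34187580, minus), which held no GAS, ISRE-like or ARE-like match, also lies wholly inside its GENCODE gene. Bases upstream of the GENCODE gene were not searched for *Psmb8*, *Psmb9* or *Psme1*.
Psmb8: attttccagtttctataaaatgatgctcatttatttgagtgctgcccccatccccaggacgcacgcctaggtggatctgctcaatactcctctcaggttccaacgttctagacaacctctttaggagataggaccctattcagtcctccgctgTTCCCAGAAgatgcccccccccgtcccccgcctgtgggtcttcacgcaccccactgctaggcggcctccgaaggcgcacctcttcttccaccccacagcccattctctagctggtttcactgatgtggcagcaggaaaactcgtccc
Psme1: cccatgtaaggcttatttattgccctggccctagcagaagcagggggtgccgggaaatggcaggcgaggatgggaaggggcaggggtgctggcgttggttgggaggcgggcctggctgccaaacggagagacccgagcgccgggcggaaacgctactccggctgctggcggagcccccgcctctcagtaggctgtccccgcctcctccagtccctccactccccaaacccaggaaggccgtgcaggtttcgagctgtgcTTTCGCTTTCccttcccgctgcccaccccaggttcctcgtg
Psmb5: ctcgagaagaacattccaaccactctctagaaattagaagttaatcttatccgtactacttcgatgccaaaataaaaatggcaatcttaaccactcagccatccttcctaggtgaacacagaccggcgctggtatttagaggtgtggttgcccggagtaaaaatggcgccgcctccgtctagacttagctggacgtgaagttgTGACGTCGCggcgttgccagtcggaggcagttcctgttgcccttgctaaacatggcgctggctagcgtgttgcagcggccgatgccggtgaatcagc
Psmb6: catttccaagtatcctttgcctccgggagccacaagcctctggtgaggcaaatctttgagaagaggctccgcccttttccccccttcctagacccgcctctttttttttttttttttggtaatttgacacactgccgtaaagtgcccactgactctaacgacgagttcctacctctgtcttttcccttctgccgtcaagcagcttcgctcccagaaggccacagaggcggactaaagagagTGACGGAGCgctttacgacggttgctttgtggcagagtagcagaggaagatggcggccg
Of 32851 promoters of the same length, 8.30% held the GAS letters, 3.44% the ISRE-like and 12.4% the ARE-like letters. Of the 25 constitutive subunits with a promoter, 1 held GAS (*Psmd2*), 2 ISRE-like and 4 ARE-like letters. Of the 5 immunoproteasome genes, 1 held GAS, 1 ISRE-like and none ARE-like letters. CCAAT stood in 37.4% of all promoters, in 10 of the 25 and in 1 of the 5, and an NF-κB-like motif in 0.411% of all promoters and in none of these members. A match describes these letters and is no sign of a bound site.

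In Th1 cells, all 5 immunoproteasome transcripts had both libraries above both Naive libraries and above both Th17 libraries, but none was called a differentially expressed gene, which required an adjusted p under 0.01 together with a log2 fold change beyond 1 in size. By edgeR's quasi-likelihood test with Benjamini-Hochberg adjustment over 13607 genes, 0 of the 44 members tested were called in any comparison or direction. Across all genes, 4.01% were called higher and 1.43% lower in Th17 compared with Naive, 4.64% and 2.81% in Th1 compared with Naive, and 2.70% and 2.83% in Th1 compared with Th17. DESeq2 called 1 member, which is described with the 20S core, against 7.58% higher and 4.74% lower, 7.67% and 5.67%, and 6.72% and 6.52% of all genes in the same order. At an adjusted p under 0.05 by edgeR, 1 member was higher and 0 lower in Th17 compared with Naive (9.37% and 6.51% of all genes), 0 and 1 in Th1 against Naive (9.10% and 7.33%), and 2 and 0 in Th1 against Th17 (8.25% and 8.14%). The median log2 fold change of the 5 was 0.72 in Th1 compared with Naive, 0.48 in Th1 compared with Th17 and 0.24 in Th17 compared with Naive, against -0.02, -0.03 and -0.02 over all genes tested. With bulk RNA, a change in the share of cells that carry a transcript and a change in its amount per cell cannot be told apart.

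*Psmb8*, the inducible chymotrypsin-like subunit, had 397 and 385 CPM (Naive), 435 and 609 (Th17) and 681 and 644 (Th1). Its order was Naive, Th17, Th1 with no overlap between neighbours, and the Th17 replicates were the farthest apart. Its log2 fold change was 0.76 ± 0.29 (SE, n = 2 libraries a group; adjusted p = 0.107, edgeR) in Th1 compared with Naive and 0.34 ± 0.29 (adjusted p = 0.423, edgeR) compared with Th17.

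*Psmb9*, the inducible counterpart of *Psmb6*, had 196 and 183 CPM (Naive), 173 and 189 (Th17) and 348 and 274 (Th1). Naive and Th17 overlapped and only the Th1 libraries lay above them. The log2 fold change was 0.72 ± 0.26 (SE; adjusted p = 0.0978, edgeR) in Th1 compared with Naive, 0.78 ± 0.26 (adjusted p = 0.0699) compared with Th17, and -0.07 ± 0.26 in Th17 compared with Naive.

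*Psmb10*, the inducible trypsin-like subunit, had 175 and 153 CPM (Naive), 138 and 133 (Th17) and 243 and 241 (Th1). It was the immunoproteasome gene with the lowest level per length in every library. It also had the smallest adjusted p of the 5 in Th1 compared with Th17, where its log2 fold change was 0.83 ± 0.25 (SE; adjusted p = 0.0488, edgeR). The Th17 libraries lay below both Naive libraries, with a log2 fold change of -0.28 ± 0.25 (adjusted p = 0.464), and the Th1 libraries above them, with 0.56 ± 0.25 (adjusted p = 0.167).

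*Psme1*, the alpha subunit of PA28, had 280 and 245 CPM (Naive), 301 and 338 (Th17) and 432 and 460 (Th1). As for *Psmb8*, the groups were ordered Naive, Th17, Th1 without overlap. Its log2 fold change was 0.76 ± 0.27 (SE; adjusted p = 0.0807, edgeR) in Th1 compared with Naive and 0.48 ± 0.26 (adjusted p = 0.229) compared with Th17.

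*Psme2*, the beta subunit of PA28, had 170 and 137 CPM (Naive), 169 and 193 (Th17) and 224 and 200 (Th1). Its changes were the smallest of the 5 in both comparisons of Th1, at 0.47 ± 0.26 (SE; adjusted p = 0.274, edgeR) against Naive and 0.23 ± 0.26 (adjusted p = 0.558) against Th17. *Psme2b* had 90.8 to 174 CPM, which was 0.592 to 0.775 of the *Psme2* count in each library, and with both copies summed the log2 fold change of *Psme2* was 0.48 and 0.29.

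Without adjustment, 3 of the 5 had p under 0.05 in Th1 compared with Naive and 2 in Th1 compared with Th17, where 15.7% and 17.2% of all genes were higher at that level. The 5 whose libraries did not overlap in each of these comparisons stand beside 27.6% and 31.5% of all genes that were higher without overlap (28.4% and 35.1% were lower). DESeq2 gave adjusted p-values under 0.05 to *Psmb8* (0.0382), *Psmb9* (0.0342) and *Psme1* (0.0152) in Th1 compared with Naive and to *Psmb9* (0.0193) and *Psmb10* (0.00572) in Th1 compared with Th17, with none past a log2 fold change of 1. At that level DESeq2 placed 8 members higher and 0 lower in Th17 compared with Naive, all 8 of them constitutive subunits (11.7% and 9.57% of all genes), 3 higher and 1 lower in Th1 against Naive (10.9% and 8.73%), and 3 higher and 1 lower in Th1 against Th17 (11.9% and 10.9%).

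**Figure D1:**
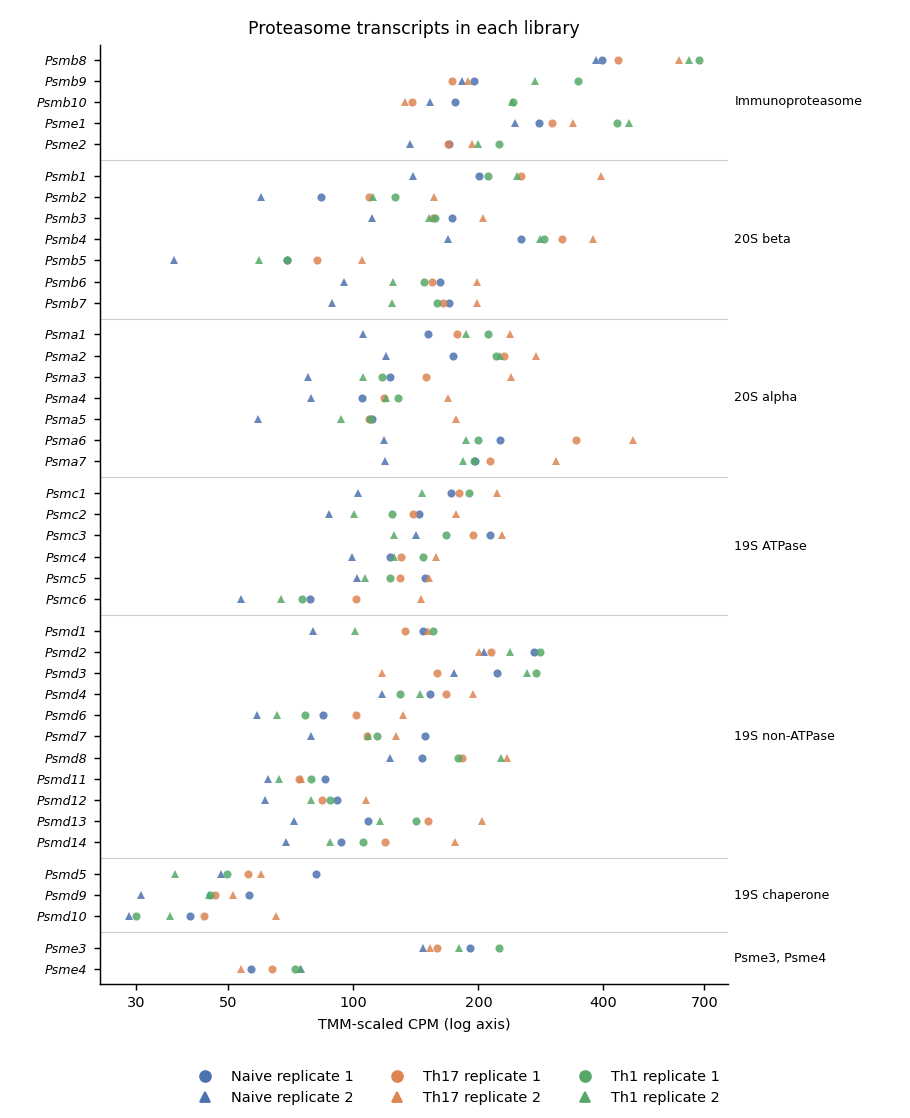
TMM-scaled CPM (log axis) of the 41 subunits, chaperones and activators above the filter, 1 row a gene, with circles for replicate 1 and triangles for replicate 2 of each cell type. Th1 libraries (green) lie to the right in the 5 immunoproteasome rows, Th17 libraries (orange) lie to the right in most 20S rows, and Naive replicate 2 (blue triangle) lies left of Naive replicate 1 in all 31 constitutive rows.

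The constitutive subunits showed another order of the cell types. Their median log2 fold change was 0.63 for Th17 against Naive, 0.17 for Th1 against Naive and -0.30 for Th1 against Th17. In that order, 29, 25 and 2 of the 31 were above zero, against 49.2%, 48.9% and 48.8% of all genes tested. 18 of the 31 were higher and 1 lower without overlap of libraries in Th17 compared with Naive, where 32.4% and 33.1% of all genes were. In Th1 compared with Th17, 2 were higher and 17 lower without overlap, against 31.5% and 35.1% of all genes. In Th1 compared with Naive 10 were higher and 0 lower without overlap, against 27.6% and 28.4%. 15 of the 31 had an unadjusted p under 0.05 in Th17 compared with Naive, all higher, against 17.2% of all genes higher and 16.1% lower.

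The size of this difference depended on which Naive library was used, and the subunits differed together between replicates. All 31 constitutive subunits were higher in Naive replicate 1 than in replicate 2, with a median log2 difference of 0.57. In Th17, 29 of 31 were lower in replicate 1, with a median of -0.36, and in Th1 27 were higher, with a median of 0.17. Of all 13607 genes tested, 7000, 7259 and 7016 were higher in replicate 1 in Naive, Th17 and Th1. Without Naive replicate 1 the constitutive median was 0.97 for Th17 and 0.62 for Th1 against Naive, and without Naive replicate 2 it was 0.36 and -0.12. Without Th17 replicate 2 it was 0.37 in Th17 compared with Naive and -0.14 in Th1 compared with Th17, and without Th17 replicate 1 -0.45 in the latter. The 80 cytosolic ribosomal protein genes measured differed between replicates by medians of 0.51, -0.50 and -0.38 in Naive, Th17 and Th1. Main transcripts of the 31 constitutive subunits ran from 766 (*Psmb3*) to 3112 bases (*Psmd1*). The 1968 genes with a main transcript under 1500 bases differed by 0.36, -0.21 and -0.03, whereas the 10477 longer ones differed by -0.02, 0.09 and 0.03. The 4 erythroid markers summed to 473 and 86.5 CPM in the Naive replicates, nearly all from *Car1*, and at most 1.33 elsewhere, while *Hba-a1* and *Hbb-bt*, which encode haemoglobin chains, were at 0 in every library. The part of transcript length, depth or red cell RNA in the constitutive values was not tested.

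**Figure D2:**
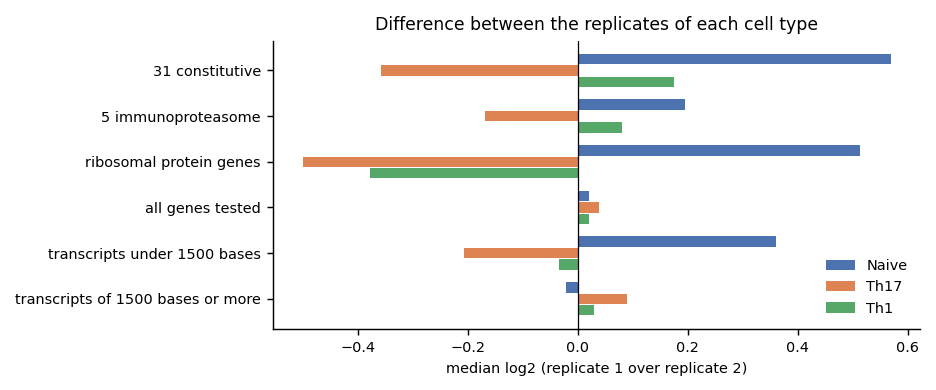
Median log2 ratio of replicate 1 over replicate 2 (horizontal axis) within Naive, Th17 and Th1 for 6 sets of genes, as bars from 0. The constitutive subunits differ by 0.57 in Naive and -0.36 in Th17, near the ribosomal protein genes (0.51 and -0.50), while the 5 immunoproteasome genes differ by 0.20 and -0.17 and all genes tested by 0.02 and 0.04.

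Within the 20S core, all 7 alpha and all 7 beta subunits had a fold change above zero in Th17 compared with Naive, with medians of 0.75 and 0.72, and below zero in Th1 compared with Th17, with medians of -0.46 and -0.36. *Psma6*, an alpha subunit chosen for naming after its values were seen, had 225 and 119 CPM (Naive), 343 and 471 (Th17) and 199 and 187 (Th1). Both Th17 libraries lay above the other 4, and Naive and Th1 overlapped. Its log2 fold change of Th17 against Naive, the largest of the 44 members, was 1.24 ± 0.35 (SE; adjusted p = 0.0383, edgeR), and it was the single member that DESeq2 called (adjusted p = 0.00633). Between Th1 and Th17 the change was -1.07 ± 0.34 (adjusted p = 0.0594, edgeR). By edgeR, the log2 fold change of *Psma6* in Th17 compared with Naive was 1.78 without Naive replicate 1 and 0.84 without Naive replicate 2. It was 1.46 and 0.99 without Th17 replicates 1 and 2, and 1.30 and 1.23 without Th1 replicates 1 and 2.

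The constitutive catalytic subunits stood lower in Th1 than in Th17 without overlap of libraries, and none passed the test. *Psmb5*, which carries the chymotrypsin-like site, had 69.4 and 37.1 CPM (Naive), 81.7 and 105 (Th17) and 69.4 and 59.4 (Th1). Its log2 fold change was 0.81 ± 0.33 (SE; adjusted p = 0.117, edgeR) in Th17 compared with Naive and -0.53 ± 0.33 (adjusted p = 0.275) in Th1 compared with Th17. The Th1 libraries overlapped with the Naive libraries.

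*Psmb6*, with the caspase-like site, had 161 and 95.2 CPM (Naive), 154 and 198 (Th17) and 148 and 125 (Th1). *Psmb7*, with the trypsin-like site, had 170 and 88.7 CPM (Naive), 164 and 198 (Th17) and 159 and 124 (Th1). For both, the Naive replicates spanned the values of Th1 and overlapped those of Th17. The log2 fold changes in Th1 compared with Th17 were -0.37 ± 0.31 for *Psmb6* and -0.36 ± 0.34 for *Psmb7* (SE; adjusted p = 0.428 and 0.477, edgeR). In Th1 compared with Naive they were 0.09 ± 0.31 and 0.13 ± 0.33, and in Th17 compared with Naive 0.46 ± 0.31 and 0.49 ± 0.34.

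In the 19S particle, the median log2 fold change of the 6 ATPases was 0.42 for Th17 against Naive, 0.03 for Th1 against Naive and -0.39 for Th1 against Th17, and the 11 non-ATPase subunits had 0.32, 0.13 and -0.15. *Psmd11*, a non-ATPase subunit, changed least, with 85.4 and 62.2 CPM (Naive), 74.2 and 75.0 (Th17) and 79.0 and 66.2 (Th1), and had the smallest absolute fold change of all members tested in Th17 compared with Naive (0.01 ± 0.26) and Th1 compared with Th17 (-0.04 ± 0.26). In Th1 compared with Naive this was *Psmd6*, also a non-ATPase subunit (-0.01 ± 0.28).

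*Psmd3*, a scaffold subunit of the 19S lid chosen for naming after its values were seen, had 222 and 174 CPM (Naive), 159 and 117 (Th17) and 275 and 261 (Th1). Unlike most constitutive subunits, it had Th17 below both Naive libraries and Th1 above them. Its log2 fold change in Th1 compared with Th17 was 0.96 ± 0.28 (SE; adjusted p = 0.0450, edgeR), the largest increase of the 44 members in that comparison. *Psmd3* and *Psmb10* were the 2 members higher in Th1 than in Th17 at an adjusted p under 0.05, and both went above it when any Th17 or Th1 library was left out (0.151 to 0.294 for *Psmb10*, 0.0843 to 0.349 for *Psmd3*).

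The 3 chaperones of 19S assembly had 28.8 to 81.4 CPM over all libraries, and their log2 fold changes lay between -0.72 and 0.65 with none at an adjusted p under 0.05. *Psme3*, which encodes the nuclear activator PA28γ, had 191 and 147 CPM (Naive), 159 and 153 (Th17) and 224 and 180 (Th1). *Psme4*, which encodes the activator PA200, had 56.8 and 74.9 CPM (Naive), 63.7 and 53.6 (Th17) and 72.2 and 74.3 (Th1). Both had Th1 libraries above Th17 without overlap, and their log2 fold changes in Th1 compared with Th17 were 0.37 ± 0.27 and 0.32 ± 0.26 (SE; adjusted p = 0.353 and 0.410, edgeR).

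The tissue-restricted core subunits had at most 1.42 CPM in any library, and *Psmb11* was at the limit of detection. *Psmb11*, the thymus subunit, had 3 and 0 counts (Naive), 0 and 0 (Th17) and 3 and 0 (Th1), no more than the 3 counts that define the limit. *Psma8*, the testis subunit, had 1.42 and 0.446 CPM (Naive), 0.184 and 0.679 (Th17) and 0.0619 and 0 (Th1). It was the single member lower in Th1 than in Naive at an adjusted p under 0.05 (log2 fold change -4.32 ± 1.13, SE; adjusted p = 0.0277, edgeR), and the adjusted p was 0.190 without Naive replicate 1, which held 97 counts against 9 in replicate 2, and 0.0948 and 0.0979 without Th1 replicates 1 and 2.

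**Figure D3:**
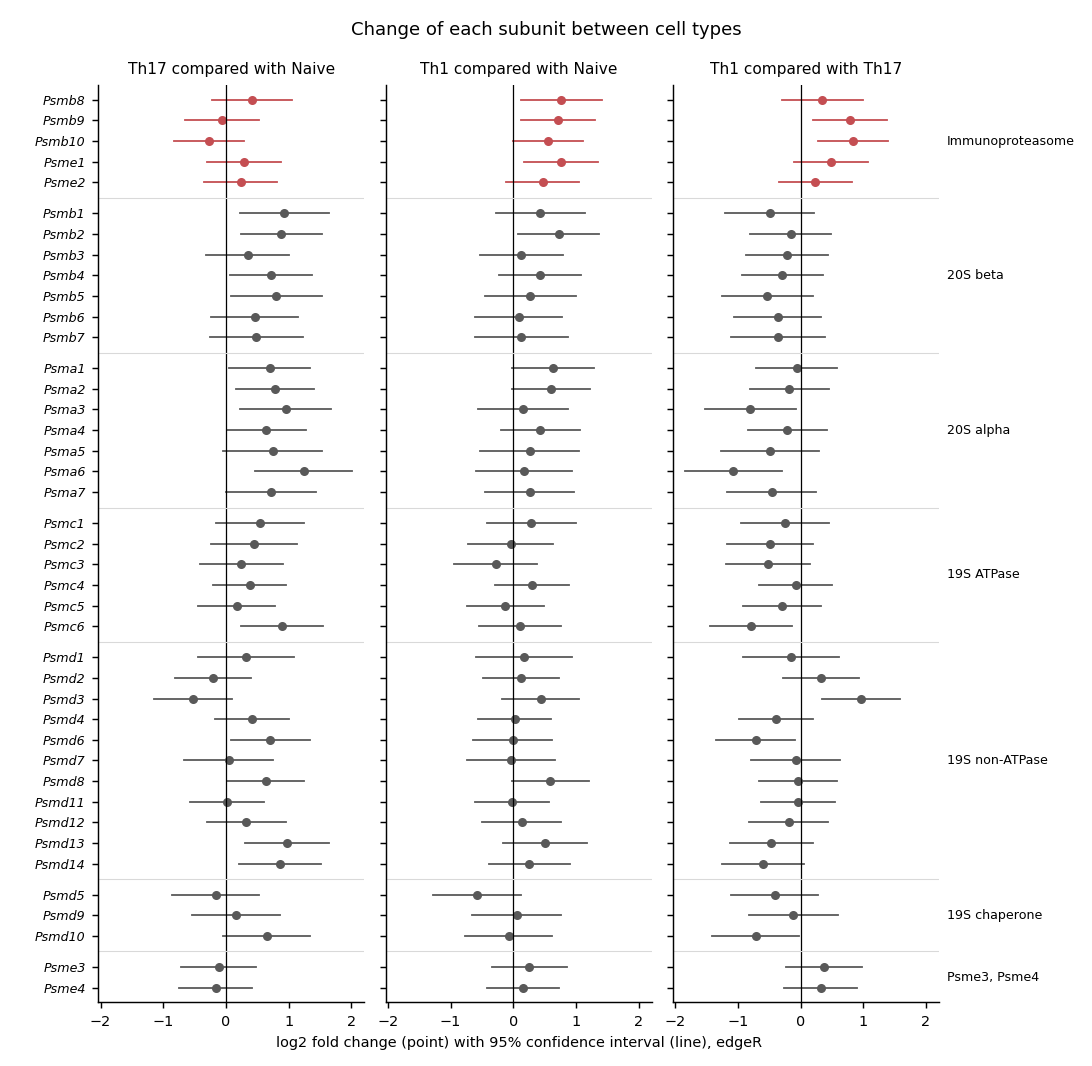
Log2 fold change (points) with its 95% confidence interval from edgeR (lines) for the same 41 genes, 1 panel a comparison, with the immunoproteasome genes in red and 0 as the vertical line. The red points reach 0.76 in Th1 compared with Naive and all lie above 0 in Th1 compared with Th17, where 29 of the 31 constitutive points lie below it.

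Because each inducible catalytic subunit replaces a constitutive one, their transcripts were set against each other within a library, as ratios of CPM per kb of the main transcript. The ratio of *Psmb8* to *Psmb5* was 3.16 and 5.73 (Naive), 2.94 and 3.21 (Th17) and 5.42 and 5.99 (Th1). For *Psmb9* over *Psmb6* it was 0.716 and 1.14 (Naive), 0.662 and 0.562 (Th17) and 1.39 and 1.30 (Th1). For *Psmb10* over *Psmb7* it was 0.915 and 1.53 (Naive), 0.745 and 0.594 (Th17) and 1.35 and 1.72 (Th1). In all 3 pairs the Th1 libraries lay above the Th17 libraries, by 1.86-fold to 2.29-fold of the geometric means, and the Naive replicates spanned most of the distance between them.

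The 3 inducible subunits together made up 56.2% and 68.2% of the transcripts of the 6 catalytic genes in the Naive libraries, 53.7% and 52.5% in those of Th17 and 68.4% and 70.6% in those of Th1, per kb of merged exons. The means were 62.2% ± 8.48, 53.1% ± 0.875 and 69.5% ± 1.60 (SD, n = 2). Per kb of the main transcript they were 61.2%, 53.7% and 69.3%, and per kb of coding sequence 70.9%, 64.6% and 77.9%, so the level depended on the length used and the order did not under these 3. Naive replicate 1 lay near the Th17 libraries and Naive replicate 2 near the Th1 libraries. With 2 libraries against 2, an exact permutation test cannot go below 0.3333, and none was run on these shares.

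Over the whole lists, the ratio of the geometric mean of the 5 immunoproteasome genes to that of the 31 constitutive subunits was 1.64 and 2.22 (Naive), 1.48 and 1.34 (Th17) and 2.46 and 2.57 (Th1), in CPM without correction for length. The ratios for PA28 were ordered otherwise. The ratio of *Psme1* to *Psme3* per kb was 3.52 and 3.97 (Naive), 4.52 and 5.29 (Th17) and 4.61 and 6.13 (Th1), and Th1 and Th17 overlapped. The ratio of *Psme2* to *Psme3* was 2.46 and 2.57 (Naive), 2.93 and 3.49 (Th17) and 2.77 and 3.08 (Th1).

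**Figure D4:**
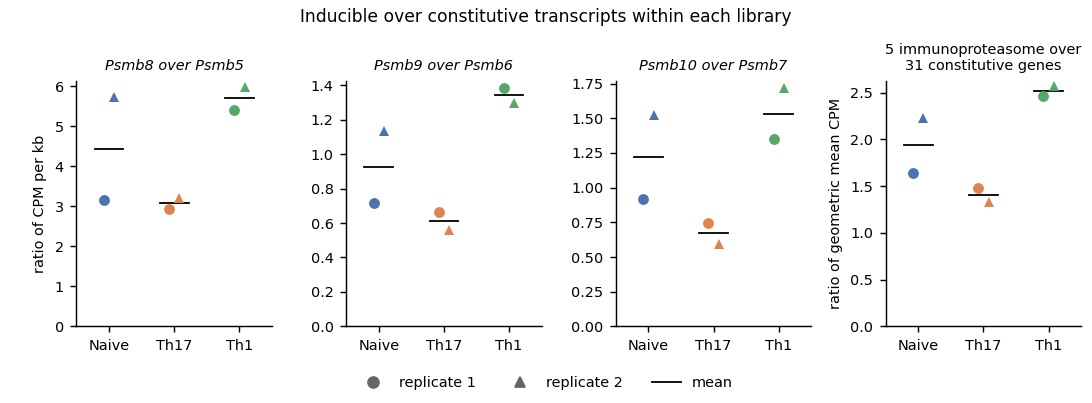
Ratio of an inducible to a constitutive transcript in each library, as CPM per kb in the first 3 panels and as geometric mean CPM of 5 against 31 genes in the fourth, with circles and triangles for replicates 1 and 2 and lines for the mean. In each panel both Th1 points lie above both Th17 points (5.42 and 5.99 against 2.94 and 3.21 for *Psmb8* over *Psmb5*), and the Naive points are the most widely spread.

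Per kb of the main transcript, *Psmb8* stood first of the 45 members, at 323 CPM per kb averaged over the cell types, and *Psme1* second, at 308. *Psma6* (247) and *Psmb4* (238), a structural beta subunit, came next. The order was not the same in each cell type. In Th17 *Psma6* averaged 390 and stood above *Psmb8* at 321, and *Psme1* stood above *Psmb8* in Naive replicate 1 (252 and 244) and in Th1 replicate 2 (413 and 396). Among the alpha subunits, *Psma3* was lowest in every library and *Psma6* or *Psma7* highest. Among the constitutive beta subunits *Psmb5* was lowest in every library and *Psmb3* or *Psmb4* highest, and the highest of the 14 core transcripts exceeded the lowest by 5.22-fold to 6.40-fold in each library, although the core holds its subunits in equal number.

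*Psmc6* was the lowest ATPase in every library, and *Psmc3* or *Psmc1* the highest. *Psmd11* was the lowest non-ATPase subunit in every library, and *Psmd4*, *Psmd8* or *Psmd3* the highest. *Psmb10* was the lowest of the 5 immunoproteasome genes in every library, and the highest was *Psme1* or *Psmb8*. These levels depend on the transcript taken for a gene's length, and no comparison between neighbours in the order was tested.

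**Figure D5:**
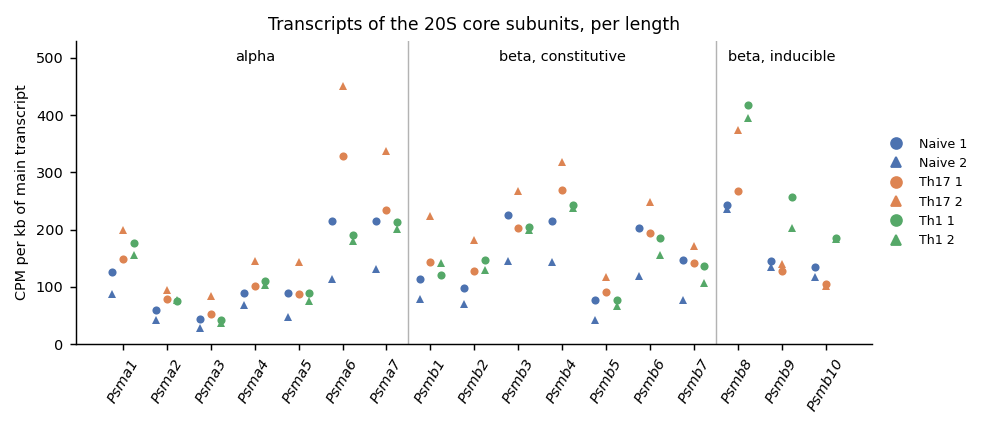
CPM per kb of main transcript (vertical axis, from 0) for the 7 alpha, 7 constitutive beta and 3 inducible beta subunits, with 6 points a gene, colored by cell type. *Psma3* and *Psmb5* are the lowest of their rings in every library, *Psma6* reaches 452 in Th17 replicate 2, and *Psmb8* exceeds *Psmb5* in each library.

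Genes that act beside the proteasome were read from lists set by function. Of 10 genes of interferon control, edgeR called 3 higher and 1 lower in Th1 compared with Naive, 3 higher and 1 lower in Th1 compared with Th17, and 1 higher and 0 lower in Th17 compared with Naive. DESeq2 called 3 and 1, 7 and 1, and 2 and 0 in the same order. *Ifng*, which encodes IFN-γ, had 4.55 and 4.56 CPM (Naive), 64.6 and 48.7 (Th17) and 177 and 157 (Th1), and rose in Th1 compared with Naive (log2 fold change 5.19 ± 0.31, adjusted p = 1.58e-05, edgeR), in Th17 compared with Naive (3.64 ± 0.29, adjusted p = 7.75e-05) and in Th1 compared with Th17 (1.56 ± 0.26, adjusted p = 0.00450). The last call held in 10 of 16 alternatives, and was lost when any Th17 or Th1 library was left out (adjusted p up to 0.0587). *Socs1*, an inhibitor of the interferon signal, rose by 2.75 and 1.84 in the comparisons of Th1 with Naive and Th17, the latter in 11 of 16 alternatives and not without Th17 replicate 1, Th17 replicate 2 or Th1 replicate 2 (adjusted p up to 0.0480, edgeR). *Ifngr1*, which encodes the ligand-binding receptor chain, rose by 2.62 in Th1 compared with Naive, while *Ifngr2*, the signalling chain, was called lower in Th1, at 2.60 and 7.21 CPM against 35.3 and 49.7 in Naive and 35.8 and 43.1 in Th17. When either Th17 library was left out, the call against Th17 was lost (adjusted p up to 0.0117, edgeR).

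*Irf1*, a transcription factor induced by interferon, had 170 and 211 CPM (Naive), 166 and 154 (Th17) and 297 and 349 (Th1). Its log2 fold change in Th1 compared with Th17 was 1.02 ± 0.27 (adjusted p = 0.0310, edgeR), which did not pass the 0.01 threshold. *Nlrc5*, the transactivator of MHC class I genes, was called higher in Th1 than in Th17 (2.01 ± 0.39, adjusted p = 0.00881), with 425 and 260 CPM against 103 and 66.5, and Naive overlapped with neither Th17 nor Th1 at 139 and 249. The call held in 9 of 16 alternatives, and was lost when any Th17 or Th1 library was left out (adjusted p up to 0.0769, edgeR).

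Of 9 genes of peptide loading, edgeR called 3 higher in Th1 compared with Th17 and none in the other comparisons or lower. DESeq2 called 6 higher in Th1 compared with Th17, 2 higher in Th1 against Naive, and 1, *Tap1*, lower in Th17 against Naive (adjusted p = 0.00119). *Tap1*, which encodes a chain of the peptide transporter and neighbours *Psmb9*, had 336 and 401 CPM (Naive), 189 and 146 (Th17) and 739 and 608 (Th1) (log2 fold change 2.01 ± 0.30 in Th1 compared with Th17, adjusted p = 0.00242, edgeR). *Tapbp*, encoding tapasin, and *B2m*, encoding the light chain of MHC class I, rose by 1.66 ± 0.30 and 1.58 ± 0.31 (adjusted p = 0.00604 and 0.00926, edgeR). The calls of *Tap1*, *Tapbp* and *B2m* held in 13, 10 and 8 of 16 alternatives. That of *Tap1* was lost without Th17 replicate 1, Th17 replicate 2 or Th1 replicate 1 (adjusted p up to 0.0328), and those of *Tapbp* and *B2m* without any Th17 or Th1 library (up to 0.0769 and 0.0775). The log2 fold changes of the 5 immunoproteasome genes in the same comparison were smaller, at 0.23 to 0.83, and whether they differed from those of the loading genes was not tested.

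None of the 7 assembly and inhibitor genes, 13 receptors and deubiquitinases, 4 genes of the Nrf1 pathway and 5 ubiquitin genes measured was called in any comparison by edgeR, and DESeq2 called 1, *Psmf1*, higher in Th1 compared with Th17 (adjusted p = 0.00108). *Psmf1*, which encodes the inhibitor PI31, had 46.5 and 42.3 CPM (Naive), 37.9 and 39.0 (Th17) and 72.8 and 88.7 (Th1), with a log2 fold change of 1.07 ± 0.26 (adjusted p = 0.0218, edgeR) in Th1 compared with Th17. *Pomp*, which encodes the maturation factor of the 20S core, had 142 and 88.5 CPM (Naive), 165 and 225 (Th17) and 158 and 136 (Th1), the order and the replicate differences of the core subunits. *Nfe2l1* had 111 and 116 CPM (Naive), 83.2 and 58.1 (Th17) and 102 and 108 (Th1). Its log2 fold change of Th17 against Naive was -0.68 ± 0.26 (adjusted p = 0.102, edgeR), where the constitutive median was 0.63. Any link between *Nfe2l1* RNA and the constitutive genes was not tested.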

How the data were processed

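Raw counts per gene were deposited for each of the 6 libraries. The authors captured poly(A) RNA, aligned reads to mm10 with HISAT2 2.2.1 and counted them by gene with HTSeq 0.13.5; the annotation release is not given in the sources used here. The methods state removal of duplicates and default counting, whereas the supplementary code holds no removal step and sets reverse strand. Reads of genes that overlap on opposite strands, such as *Psmb9* and *Tap1*, may therefore not be separable.

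Of 24223 genes, 6377 had no count and 13607 passed filterByExpr. Counts were tested in R 4.3.3 by edgeR 4.0.16 (TMM, factors 0.862 to 1.09, quasi-likelihood test, 1 model of all 6 libraries with cell type alone), and by DESeq2 1.42.0 as an alternative. A gene was called at a Benjamini-Hochberg adjusted p under 0.01 together with a log2 fold change beyond 1 in size. Lengths and coordinates came from GENCODE vM21, and differences between replicates used log2 of CPM plus 0.5. Scripts were tested on simulated counts with known changes.

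Genes named were the immunoproteasome genes, their counterparts, *Psme3* and *Psme4*, members of extreme change or level, and called or preset members of related lists. Some genes that meet this rule are not reported here. Alternatives were RLE and library-size scaling, scaling to the constitutive subunits, other filters and thresholds, a replicate block, thinning to the smallest library, other gene lengths and leaving out each library. The members and lists were chosen with earlier results of these data known. Replicates differed far beyond counting noise (chi-square per degree of freedom 147 in Naive, 93.6 in Th17 and 134 in Th1).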

Additional observations from a re-analysis of the deposited data

Results flagged for a closer look

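*Psmb10* and *Psmd3* were picked out because both Th17 libraries lay below both Naive libraries and both Th1 libraries above them, so that the change from Naive had opposite signs in the 2 helper types. The difference between these changes is the log2 fold change of Th1 compared with Th17. It was 0.83 for *Psmb10* (adjusted p = 0.0488, edgeR) and 0.96 for *Psmd3* (adjusted p = 0.0450, edgeR). Over the 10 alternatives other than leaving out each library, the adjusted p by edgeR or DESeq2 was 0.00572 to 0.117 and 0.00751 to 0.113. Leaving out each library in turn gave fold changes of 0.81 to 0.85 and 0.76 to 1.19. The adjusted p-values of those fits are given with *Psmd3* above. Neither change from Naive passed the test, and neither gene passed the threshold of 0.01 by edgeR. These adjusted p-values rest on the same values by which the genes were picked. Of all genes tested, 33.1% were lower without overlap in Th17 compared with Naive, and 27.6% were higher in Th1 compared with Naive. The share of all genes with both was not counted, so the pattern is not shown to be particular to these members.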

How the results depend on the processing

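The count of members called was 0 in each comparison and direction, also when any library was left out (0 to 0). It was 1 (*Psma6*) for higher in Th17 compared with Naive by DESeq2, by DESeq2 with the replicate block, with no filter on low counts and at an adjusted p under 0.05 with or without the fold limit. It was 1 (*Psma8*) for lower in Th1 compared with Naive with no filter and at 0.05 with or without the fold limit, and 2 for higher in Th1 compared with Th17 at 0.05 without it.

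Same-numbered libraries did not deviate together (r of deviations across genes -0.23, 0.17 and 0.08), so the numbers were not taken as pairs, and with edgeR the replicate block left all 6 counts at 0.

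Leaving out each library in turn gave constitutive medians of 0.36 to 0.97 (Th17 compared with Naive), -0.12 to 0.62 (Th1 compared with Naive) and -0.45 to -0.14 (Th1 compared with Th17). With library size alone the constitutive median was -0.056 in Th1 compared with Naive and -0.50 in Th1 compared with Th17, the immunoproteasome median was 0.47 and 0.27 in the same comparisons, and scaled to the constitutive subunits, a setting added after the data were seen, the immunoproteasome median was -0.32, 0.43 and 0.78 in the 3 comparisons. The inducible share was 70.9%, 64.6% and 77.9% in Naive, Th17 and Th1 by coding length and 71.1%, 65.1% and 78.1% with no length correction.

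Some uncalled fold changes changed sign. Scaled to the constitutive subunits they were -0.19 (*Psmb8*), -0.29 (*Psme1*), -0.32 (*Psme2*), -0.064 (*Psmb6*) and -0.013 (*Psmb7*) in Th17 compared with Naive, and -0.13 (*Psmb6*), -0.071 (*Psmb7*), -0.0019 (*Psme3*), -0.17 (*Psme4*) and -0.026 (*Psma6*) in Th1 compared with Naive. With library size alone they were -0.15 (*Psmb6*), -0.10 (*Psmb7*), -0.10 (*Psme4*) and -0.071 (*Psma6*) in Th1 compared with Naive. Leaving out each library in turn gave -0.13 to 0.0023 (*Psmb9*), -0.30 to 0.084 (*Psme3*) and -0.35 to 0.037 (*Psme4*) in Th17 compared with Naive, and -0.11 to 0.79 (*Psmb5*), -0.24 to 0.52 (*Psmb6*), -0.26 to 0.67 (*Psmb7*), -0.037 to 0.37 (*Psme4*) and -0.22 to 0.70 (*Psma6*) in Th1 compared with Naive.

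With 2 libraries a group, a library left out leaves 1, which was assumed to vary like the other groups. Where the 95% interval of a member's fold change spans zero, a change in either direction is within the error.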
